A study of Mus musculus with 6 samples.

Results

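The 7 genes described here encode hormones of the TGF-beta family made in ovarian follicles, a receptor for one of those hormones, and the secreted proteins that bind them. They are Amh (anti-Müllerian hormone, AMH) and its receptor gene Amhr2, the inhibin and activin subunit genes Inha, Inhba and Inhbb, and the follistatin genes Fst and Fstl3. They were chosen as a list of symbols and matched by Ensembl identifier to the deposited table, which holds 55487 genes; each symbol matched 1 identifier, and all 7 passed the filter on low counts that left 16957 genes for testing. The samples were whole ovaries of mice on 1 mixed background, named cbl/6-ola/129 in the labels, taken at postnatal day 49. GalTKO ovaries came from mice labelled GalT-/-, which lack galactose-1-phosphate uridylyltransferase, the galactose-metabolising enzyme missing in human classic galactosemia (3 samples). Wildtype ovaries (3 samples) came from mice on the same diet, which held 2.5% galactose and was given to both genotypes over 4 weeks from weaning, so there is no group without added galactose. The labels do not say whether a sample is 1 animal, nor give litter or estrous stage, and p-values therefore measure the spread between these samples, which may in part be technical.

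As background, AMH is secreted by granulosa cells of small growing follicles, where it restrains the recruitment of primordial follicles and lowers the response to follicle-stimulating hormone (FSH), and in the clinic it is read as a measure of the growing follicle pool. It signals through the type II receptor encoded by Amhr2, which partners with type I receptors of the BMP class and with SMAD1, SMAD5 and SMAD9. Inhibins are dimers of the alpha subunit (Inha) with a beta subunit (Inhba or Inhbb) and suppress pituitary FSH release, while activins are dimers of beta subunits alone, raise FSH release and signal through SMAD2 and SMAD3. Follistatin (Fst) and the follistatin-like protein of Fstl3 bind activins and keep them from their receptors.

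Libraries held 19232486 to 25729564 counts over all genes. Galt, the deleted gene, had 4, 6 and 0 counts in GalTKO replicates 1 to 3, against 445, 380 and 402 counts in wildtype replicates 1 to 3. Markers of ovary were present in all libraries, with the granulosa list summing to 5414 to 6051 CPM (each gene's count relative to the scaled library total) in GalTKO and 5210 to 5795 CPM in wildtype ovaries. The oviduct marker Ovgp1 stood apart in wildtype replicate 2, at 20.3 CPM, where the other 5 libraries held at most 0.80 CPM, while the other oviduct markers, Foxj1 and Pax8, reached at most 0.36 CPM in any library. GalTKO replicate 2 stood apart for the theca enzyme gene Cyp17a1, with 7.29 CPM against 296 and 399.7 CPM in the other GalTKO libraries and 119 to 132 CPM in wildtype. It also stood apart for corpus luteum markers. Sfrp4 was at 176 CPM, against 1157 to 1965 CPM in the other 5 libraries, and Ptgfr at 204 against 574 to 936 CPM. Parm1 was highest there instead, at 126 CPM against 40.4 to 118 CPM. The calls of Amh and Smad1 were lost without wildtype replicate 2. Their log2 fold changes, GalTKO over wildtype, were then 0.82 and -0.95, against 0.76 and -0.92 with all libraries. Without wildtype replicate 1, 2 or 3 the genes called numbered 181, 165 and 202, against 433 with all libraries. Without GalTKO replicate 1, 2 or 3 they numbered 263, 742 and 322. The values of several other genes moved without GalTKO replicate 2, as given beside them.

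Of the 7 genes, 1 changed between the genotypes: Amh, which was higher in GalTKO ovaries by 1.69-fold (95% interval 1.39 to 2.06). Across all 16957 tested genes 2.55% passed the same threshold, an adjusted p under 0.05 in edgeR's quasi-likelihood test, 1.13% higher and 1.43% lower in GalTKO. The other 6 did not pass. Their log2 fold changes, GalTKO over wildtype, were 0.58 for Amhr2, 0.47 for Fstl3, -0.05 for Inha, -0.04 for Inhba, -0.35 for Inhbb and -0.38 for Fst, with a median of -0.04 over all 7 against 0.02 over all tested genes. Before adjustment, 5 of the 7 (Amh, Amhr2, Inhbb, Fst and Fstl3) had p under 0.05, against 17.1% of all tested genes. The 3 libraries of each genotype did not overlap for 2 of the 7, Amh and Fst, against 23.7% of all tested genes. In whole-ovary RNA, fewer cells of a type and less RNA per cell cannot be told apart, which holds for each of these values.

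**Figure D1:**
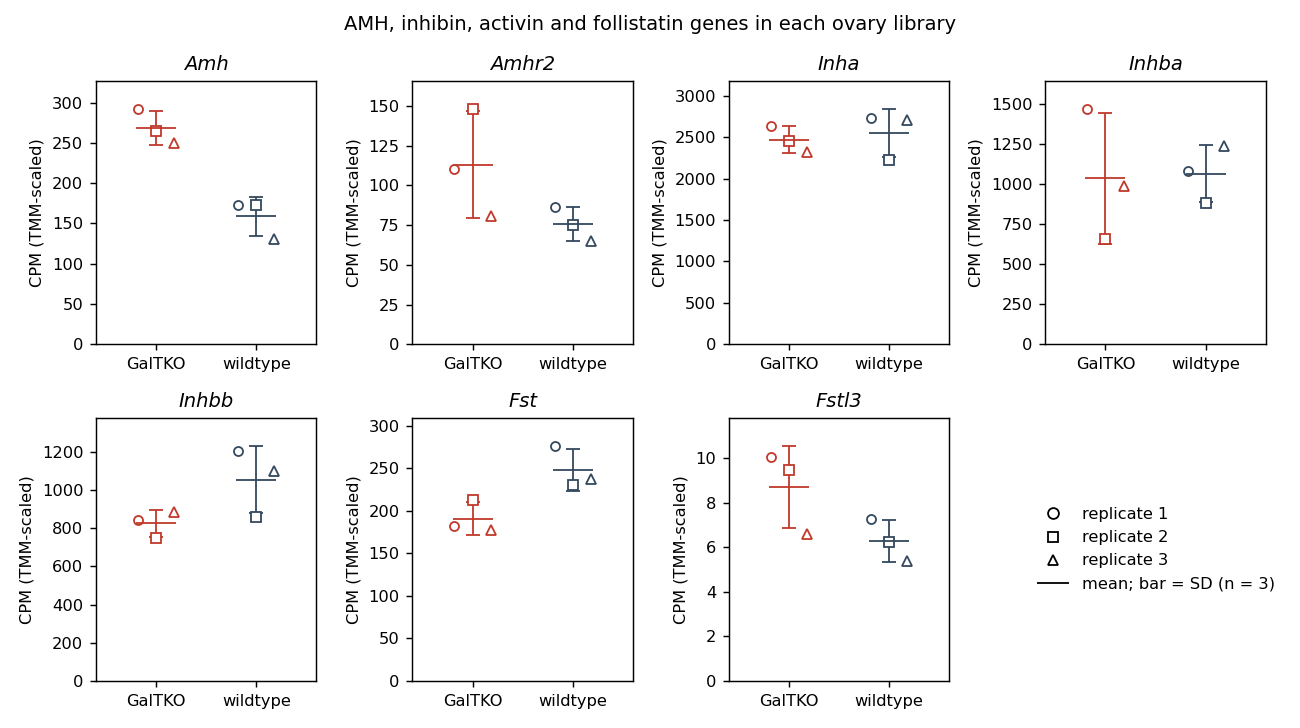
CPM of each of the 7 genes (vertical axes, linear from 0) in the 3 GalTKO libraries at left and the 3 wildtype libraries at right; symbols mark the replicate number, and lines give the mean and SD (n = 3 per group). The GalTKO libraries lie above all wildtype libraries for Amh and below them for Fst, and the groups overlap for the other 5.

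The genes differed widely in level, compared here as CPM per kilobase of merged exon so that gene length does not enter. Inha stood far above the rest, with 1675 ± 109 in GalTKO and 1732 ± 194 CPM per kb in wildtype ovaries (SD, n = 3), which placed it 13th in GalTKO and 10th in wildtype among 16942 tested genes with an annotated length. In wildtype ovaries the order below it was Inhbb (248 ± 41.5), Inhba (167 ± 27.9), Amh (95.2 ± 14.5), Fst (54.1 ± 5.39), Amhr2 (37.7 ± 5.29) and Fstl3 (2.57 ± 0.391 CPM per kb), and the 3 libraries of each gene did not overlap with those of the next. In GalTKO ovaries the order read Inhbb (194 ± 16.6), Inhba (162 ± 64.0), Amh (161 ± 12.8), Amhr2 (56.4 ± 16.8), Fst (41.6 ± 4.24) and Fstl3 (3.56 ± 0.753 CPM per kb). There the libraries of Inhbb overlapped with those of Inhba, those of Inhba with those of Amh, and those of Amhr2 with those of Fst, so the order within these pairs did not hold beyond the spread. Inhba was the most variable in GalTKO, with a coefficient of variation of 39.5%, against 16.7% in wildtype.

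Amh (ENSMUSG00000035262; GRCm38 chromosome 10, 80805243 to 80807648, plus strand, 5 exon blocks) had 292, 265 and 249.6 CPM in GalTKO replicates 1 to 3, against 173, 173 and 131 CPM in wildtype replicates 1 to 3. All 3 GalTKO libraries lay above all 3 wildtype libraries, and wildtype replicate 3 was the lowest of the 6. On the log2 scale Amh rose by 0.76 ± 0.12 (SE, 3 libraries per genotype; edgeR adjusted p = 0.0214). The values rested on 4796 to 7542 counts in GalTKO and 3025 to 4320 counts in wildtype libraries. In fits with 1 library left out the log2 fold change lay between 0.63 and 0.82, and Amh lost its call without GalTKO replicate 1 (adjusted p = 0.0625), wildtype replicate 1 (0.0632) or wildtype replicate 2 (0.0697), the library with the Ovgp1 signal. It passed in the 3 other such fits, with 0.0247 without GalTKO replicate 2.

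Sf3a2, a splicing factor gene that ends 319 bases before Amh on the same strand, had 135, 128 and 112 CPM in GalTKO replicates 1 to 3, against 102, 100.4 and 89.2 CPM in wildtype replicates 1 to 3. The groups did not overlap, but Sf3a2 did not pass (0.36 ± 0.10 on the log2 scale, SE; edgeR adjusted p = 0.109). Jsrp1, which lies 848 bases past Amh on the opposite strand, averaged 2.23 ± 0.790 CPM in GalTKO and 0.914 ± 0.344 CPM in wildtype libraries (SD, n = 3). It did not pass either, at 1.29 ± 0.39 on the log2 scale (SE; edgeR adjusted p = 0.144). The part of reads from these neighbours in the Amh counts was not tested.

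Amhr2 (ENSMUSG00000023047; chromosome 15, 102445367 to 102454633, plus strand, 11 exon blocks), which encodes the AMH type II receptor, had 110.3, 148 and 81.0 CPM in GalTKO replicates 1 to 3, against 86.4, 75.4 and 65.1 CPM in wildtype replicates 1 to 3. GalTKO replicate 3 lay within the wildtype range and GalTKO replicates 1 and 2 above it, with replicate 2 the highest. Its log2 fold change was 0.58 ± 0.22 (SE), with a 95% interval of 0.07 to 1.09, and did not pass (edgeR adjusted p = 0.241). It stood at 0.34 without GalTKO replicate 2 (adjusted p = 0.279).

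The 250 bases before the annotated start of Amhr2 are shown because they belong to the receptor of the hormone that changed (RefSeq, GRCm38.p6, chr15:102445117-102445366, plus strand). Capitals mark AGGTCA, the half-site letters bound by nuclear receptors of the NR5A group, searched on both strands (AGGTCA and TGACCT); 14.0% of 32851 upstream windows of this length hold a match. The match begins 230 bases before the start, and the window holds 55.2% G and C, against a median of 52.4% over all windows. It is not particular to Amhr2. The windows of Inha and Fstl3 hold a match too, 69 and 200 bases before their RefSeq starts, and that of Inha lies inside the gene as annotated here. Binding at these letters was not tested.
Amhr2: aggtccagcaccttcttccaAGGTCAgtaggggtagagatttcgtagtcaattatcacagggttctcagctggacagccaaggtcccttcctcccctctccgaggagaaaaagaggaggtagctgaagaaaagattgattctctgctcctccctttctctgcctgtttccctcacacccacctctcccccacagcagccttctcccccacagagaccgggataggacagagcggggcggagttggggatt

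Among the inhibin and activin subunits, no gene passed. Inha (ENSMUSG00000032968; chromosome 1, 75507077 to 75510366, plus strand, 2 exon blocks), the subunit that makes a dimer an inhibin, had 2639, 2455 and 2318 CPM in GalTKO replicates 1 to 3, against 2731, 2224 and 2707 CPM in wildtype replicates 1 to 3. All GalTKO values lay within the wildtype range. The log2 fold change was -0.05 ± 0.13 (SE; edgeR adjusted p = 0.889), with a 95% interval for the fold of 0.792 to 1.18. Obsl1, which lies 625 bases before Inha on the opposite strand, had a log2 fold change of -0.07 ± 0.14 (SE; edgeR adjusted p = 0.847).

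Inhbb (ENSMUSG00000037035; chromosome 1, 119415465 to 119422248, minus strand, 2 exon blocks), the beta B subunit of activin B and inhibin B, had 844, 747 and 884 CPM in GalTKO replicates 1 to 3, against 1205, 860.1 and 1098 CPM in wildtype replicates 1 to 3. GalTKO replicate 3 lay above wildtype replicate 2, so the groups overlapped. The log2 fold change was -0.35 ± 0.14 (SE), with a 95% interval of -0.68 to -0.03, and did not pass (edgeR adjusted p = 0.253). It ran from -0.49 to -0.25 with 1 library left out.

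Inhba (ENSMUSG00000041324; chromosome 13, 16011851 to 16031621, plus strand, 5 exon blocks), the beta A subunit of activin A and inhibin A, had 1467, 654 and 986 CPM in GalTKO replicates 1 to 3, against 1079, 879.7 and 1235 CPM in wildtype replicates 1 to 3. GalTKO replicates 1 and 2 were the highest and the lowest of all 6 libraries, outside the wildtype range on either side. The log2 fold change was -0.04 ± 0.28 (SE, edgeR adjusted p = 0.961). Its 95% interval for the fold, 0.611 to 1.55, is wide, so both a decrease and an increase within it are compatible with these libraries. The log2 fold change of Inhba was -0.38 without GalTKO replicate 1 and 0.20 without GalTKO replicate 2 (edgeR adjusted p = 0.459 and 0.608).

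The upstream windows of the beta subunit genes are set side by side (RefSeq, GRCm38.p6, 250 bases before the start, with Inhba at chr13:16011601-16011850, plus strand, and Inhbb at chr1:119422249-119422498, minus strand). They were chosen after the spread among the 3 GalTKO libraries was seen (coefficient of variation 39.5% for Inhba and 8.53% for Inhbb). Among the wildtype libraries it was 16.7% for both. A link between sequence and spread was not tested. Capitals mark TATAAA, the letters of a TATA box, searched on both strands (TATAAA and TTTATA, which 12.4% of 32851 windows hold). Inhba holds a match that begins 91 bases before its start and has 43.2% G and C. Inhbb holds no such match and has 68.0% G and C, and neither window holds AGGTCA on either strand. Of the other windows read, that of Fstl3 holds a TATA match too, which begins 29 bases before its RefSeq start.
Inhba: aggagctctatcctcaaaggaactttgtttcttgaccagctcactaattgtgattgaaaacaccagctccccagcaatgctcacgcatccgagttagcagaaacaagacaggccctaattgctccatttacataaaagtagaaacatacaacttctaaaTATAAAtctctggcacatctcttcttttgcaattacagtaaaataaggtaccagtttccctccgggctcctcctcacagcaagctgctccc
Inhbb: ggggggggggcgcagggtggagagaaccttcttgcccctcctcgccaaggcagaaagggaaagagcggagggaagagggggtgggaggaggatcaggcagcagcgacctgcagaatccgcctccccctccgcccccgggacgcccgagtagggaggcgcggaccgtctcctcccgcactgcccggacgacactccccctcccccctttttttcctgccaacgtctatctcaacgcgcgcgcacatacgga

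Fst (ENSMUSG00000021765; chromosome 13, 114452290 to 114458951, minus strand, 3 exon blocks), which encodes follistatin, had 182, 213 and 177 CPM in GalTKO replicates 1 to 3, against 276, 230.3 and 238 CPM in wildtype replicates 1 to 3. All 3 GalTKO libraries lay below all 3 wildtype libraries. Follistatin's log2 fold change was -0.38 ± 0.11 (SE), a fold of 0.769 with a 95% interval of 0.648 to 0.913, and did not pass (edgeR adjusted p = 0.126). Its call depended on the method and the libraries. Fst passed in DESeq2 (adjusted p = 0.0463), where 6.28% of tested genes did. It passed in edgeR when genes with low counts were kept (adjusted p = 0.0352), where 2.83% did. Without GalTKO replicate 2 it passed too (-0.47, edgeR adjusted p = 0.0446), where 742 genes did, against 433 with all libraries. Over all 13 alternative fits its adjusted p ran from 0.0352 to 0.355, and each gave a negative log2 fold change. An antisense gene, Gm47040, overlaps 115 exonic bases of Fst and held at most 6 counts in any library.

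Fstl3 (ENSMUSG00000020325; chromosome 10, 79777272 to 79782630, plus strand, 6 exon blocks) had the lowest level of the 7, with 10.1, 9.45 and 6.61 CPM in GalTKO replicates 1 to 3, against 7.28, 6.22 and 5.37 CPM in wildtype replicates 1 to 3. GalTKO replicate 3 lay within the wildtype range. These values rest on 127 to 260 counts in GalTKO and 124 to 182 counts in wildtype libraries. For Fstl3 the log2 fold change was 0.47 ± 0.21 (SE) and did not pass (edgeR adjusted p = 0.291). Of its 2445 exonic bases 1157 overlap exons of Prss57 on the opposite strand. No source used here gives the strand setting of the counting, so reads of the 2 genes may not be told apart and the Fstl3 values are uncertain, although Prss57 itself held at most 2 counts in any library.

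**Figure D2:**
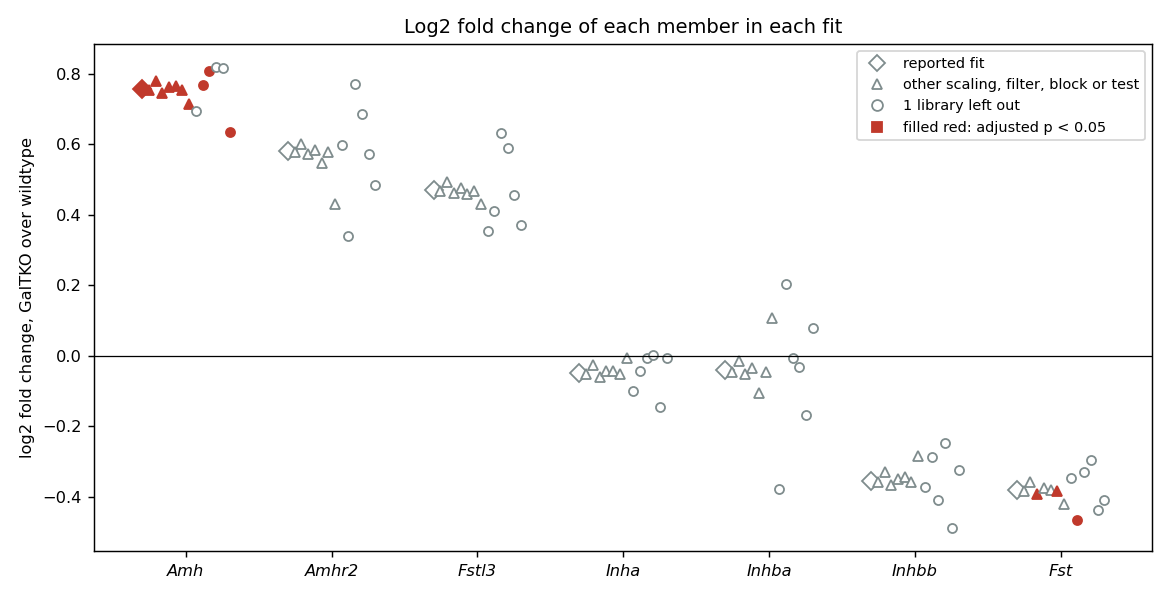
Log2 fold change, GalTKO over wildtype (vertical axis), of each of the 7 genes in the reported fit and in 13 alternative fits; filled red symbols passed an adjusted p of 0.05. Amh lies between 0.63 and 0.82 in all 14 fits and passes in 11 of them, Fst passes in 3, and the other 5 genes pass in none.

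Ratios between members within a library do not depend on scaling between libraries, and 8 were compared as log2 ratios of counts. The ratio of Amh to Inha was -3.18, -3.21 and -3.21 in GalTKO replicates 1 to 3, against -3.98, -3.68 and -4.37 in wildtype replicates 1 to 3. The GalTKO values lay closely together (SD 0.02, against 0.34 in wildtype), and the groups did not overlap. The difference, GalTKO minus wildtype, was 0.81 log2 units, a fold of 1.75 (exact permutation test, two-sided, p = 0.10, the smallest that 3 against 3 samples allow; adjusted over the 8 ratios, p = 0.267).

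The ratio of Amh to Inhba was higher by 0.87 log2 units in GalTKO libraries, and that of Inha to Inhbb by 0.30. In both the groups did not overlap, with the same exact permutation p = 0.10 and adjusted p = 0.267. These 3 were the ratios without overlap, and none of the 8 can pass 0.05 in this design. The ratios share genes, and those of Amh to Inha and to Inhba are not independent of the rise of Amh itself. The ratio of Amh to Amhr2 was 1.29 ± 0.40 in GalTKO and 1.07 ± 0.11 log2 units in wildtype libraries (SD, n = 3), with overlap (exact permutation p = 0.40). Their difference of 0.22 was 0.44 when GalTKO replicate 2 was left out and 0.05 when replicate 3 was.

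The ratios over Inhba spread widely in GalTKO libraries. That of Fstl3 was higher by 0.56 log2 units in GalTKO libraries, with overlap (exact permutation p = 0.50), and by 0.20 without GalTKO replicate 2. Fst to Inhba was -3.01, -1.62 and -2.48 in GalTKO replicates 1 to 3, against -1.96, -1.93 and -2.38 log2 units in wildtype replicates 1 to 3. On the scale per kilobase, Inha exceeded the sum of Inhba and Inhbb by 4.18, 5.99 and 4.34 times in GalTKO replicates 1 to 3, against 4.10, 4.44 and 4.07 times in wildtype replicates 1 to 3. Inhba per kilobase exceeded Inhbb in 1 of the 6 libraries, GalTKO replicate 1 (229.7 against 198.4 CPM per kb), and its ratio to Inhbb lay between 0.583 and 0.749 in the other 5.

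**Figure D3:**
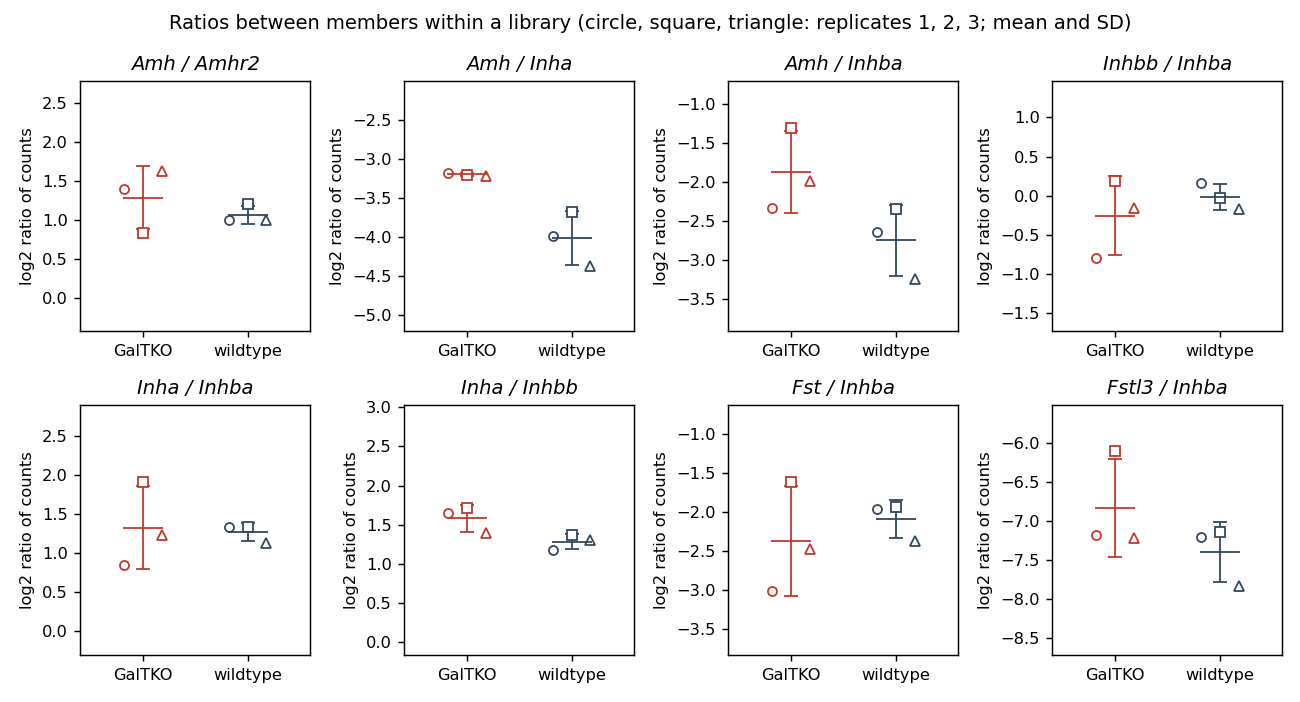
Log2 ratio of counts (vertical axes, each spanning the same width of log2 units) for 8 pairs of genes within each library, with the 3 GalTKO libraries at left and the 3 wildtype libraries at right of each panel; lines give the mean and SD. The groups are apart for Amh to Inha, Amh to Inhba and Inha to Inhbb, and overlap for the other 5 ratios.

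The wider pathway was read from 6 lists with 59 genes, of which 52 were tested. None was higher, 2 were lower (Smad1 and Nr5a2) and 50 did not pass, where 1.13% of all tested genes were higher and 1.43% lower. The median log2 fold change was -0.03, against 0.02 over all tested genes. Among 8 SMAD genes, Smad1, a transducer downstream of BMP and AMH receptors, fell to 51.9, 63.2 and 67.3 CPM in GalTKO replicates 1 to 3, against 97.9, 113 and 135 CPM in wildtype replicates 1 to 3. The groups did not overlap (-0.92 ± 0.14 on the log2 scale, SE; edgeR adjusted p = 0.0154), and the call was lost without wildtype replicate 2 (-0.95, adjusted p = 0.0709). Smad5 and Smad9, which serve the same receptors, stood at -0.06 ± 0.08 and 0.05 ± 0.26 (log2, SE) and did not pass. Of the activin transducers, Smad2 stood at -0.13 ± 0.08 and Smad3 at -0.06 ± 0.09, and the shared Smad4 at -0.08 ± 0.08, with no call.

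None of 10 tested receptor and co-receptor genes passed. The type II receptor gene Bmpr2 averaged 1001 ± 59.5 CPM in GalTKO and 1265 ± 95.9 CPM in wildtype ovaries (SD, n = 3), a log2 difference of -0.34 ± 0.11 (SE; edgeR adjusted p = 0.157). Bmpr1a, a type I receptor gene of the BMP class, averaged 219 ± 8.36 CPM in GalTKO and 262 ± 6.56 CPM in wildtype ovaries (-0.26 ± 0.08; edgeR adjusted p = 0.135). The groups did not overlap for either gene, and both passed in DESeq2 (adjusted p = 0.0255 and 0.0443). Acvr1c, a type I receptor gene for activin B and related ligands, averaged 3.01 ± 1.52 CPM in GalTKO and 1.51 ± 0.258 CPM in wildtype ovaries (0.99 ± 0.38; edgeR adjusted p = 0.232), and its groups overlapped. GalTKO replicate 2 held 4.70 CPM of Acvr1c, against 2.55 and 1.77 CPM in the other GalTKO libraries, and without it the log2 fold change was 0.52.

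No gene passed among 7 tested related ligands, 9 other antagonists and 4 convertases. Inhbc, an inhibin beta subunit gene of liver, and the myostatin gene Mstn had no count in any library. The oocyte ligand gene Bmp15 had a log2 fold change of 0.26 ± 0.15 (SE), Bmp2 of -0.39 ± 0.24 and Bmp6 of 0.37 ± 0.27. Among antagonists, Chrdl1 stood at 0.24 ± 0.23 (0.44 without GalTKO replicate 2) and Fstl4 at 0.32 ± 0.41. Grem1, a BMP antagonist gene of granulosa cells, had 76.4, 12.9 and 36.6 CPM in GalTKO replicates 1 to 3, against 27.2, 31.0 and 28.2 CPM in wildtype replicates 1 to 3, with replicates 1 and 2 at the extremes as for Inhba. Its log2 fold change of 0.54 ± 0.61 (SE) was -0.23 when GalTKO replicate 1 was left out and 0.98 when replicate 2 was. The convertase genes Furin, Pcsk5 and Pcsk6, whose family cleaves such precursors, stood at -0.05 ± 0.11, 0.25 ± 0.29 and -0.33 ± 0.13.

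Of 14 genes known to act on the promoters or the FSH control of these hormones, 1 was lower and 13 did not pass, where 1.43% of all tested genes were lower. Nr5a2, a nuclear receptor of granulosa and luteal cells, fell to 532, 623 and 541 CPM in GalTKO replicates 1 to 3, against 873, 764 and 1005 CPM in wildtype replicates 1 to 3 (-0.64 ± 0.13 on the log2 scale, SE; edgeR adjusted p = 0.0425). It passed in 1 of 6 fits with a library left out, that without GalTKO replicate 2, with adjusted p up to 0.135 in the others. Its relative Nr5a1, which binds the same letters, stood at 0.06 ± 0.10. Gata6, a factor of granulosa cells, stood at -0.47 ± 0.13 (edgeR adjusted p = 0.120; 0.0349 in DESeq2), and Foxl2, which maintains granulosa identity, at -0.27 ± 0.10 (edgeR adjusted p = 0.224). The FSH receptor gene Fshr had 57.5, 35.9 and 53.9 CPM in GalTKO replicates 1 to 3, against 39.3, 34.4 and 27.0 CPM in wildtype replicates 1 to 3, with overlap and no call (0.55 ± 0.20; edgeR adjusted p = 0.231). Without GalTKO replicate 2 Fshr passed, at 0.73 (edgeR adjusted p = 0.0377), where 742 genes did, against 433 with all libraries. Fshr was chosen for naming after its values were seen.

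**Figure D4:**
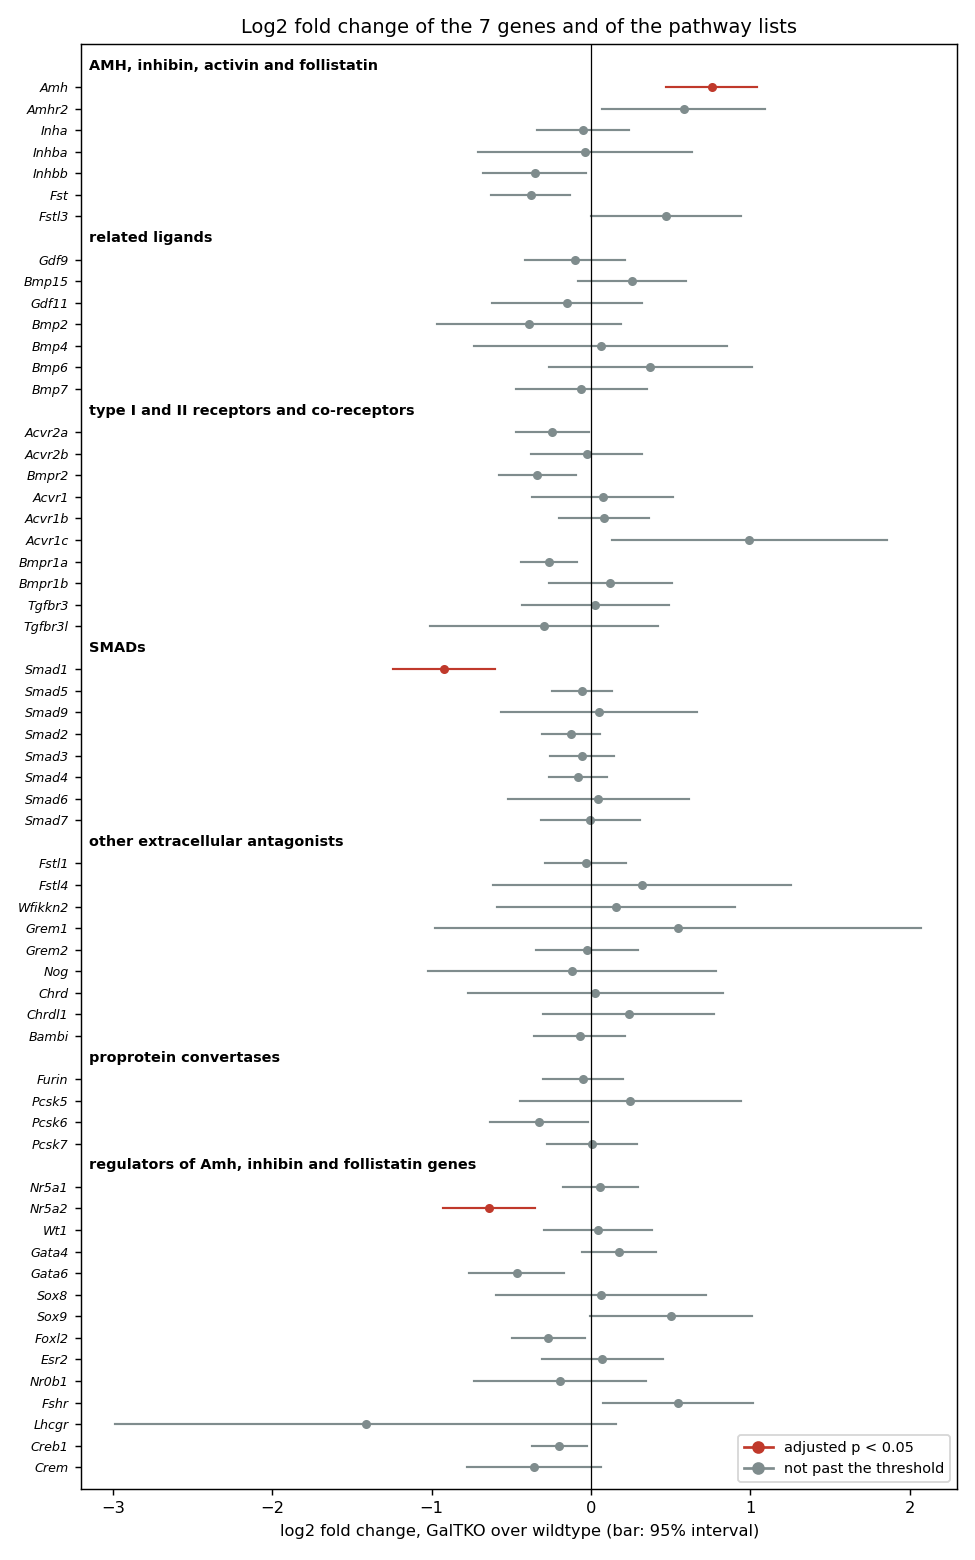
Log2 fold change, GalTKO over wildtype (horizontal axis), with its 95% interval for the 7 genes and for 52 tested genes of 6 pathway lists (rows); red marks an adjusted p under 0.05. Amh lies at 0.76, Smad1 at -0.92 and Nr5a2 at -0.64, and the other genes did not pass.

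Markers of the cell types of the ovary were read beside these results. Over all tested genes, 1.13% passed as higher and 1.43% as lower in GalTKO, and the lists are short. Of 13 granulosa markers, 1 was higher (Slc18a2), 1 lower (Nr5a2) and 11 did not pass, with a median log2 fold change of 0.07. The summed granulosa level, 5414 to 6051 CPM in GalTKO and 5210 to 5795 CPM in wildtype libraries, overlapped between the genotypes. Gja1 alone made up 2882.5 to 3801 CPM of these sums, and 7 of the 13 log2 fold changes were positive and 6 negative. Oocyte markers summed to 230.4 to 265 CPM in GalTKO and 198 to 303 CPM in wildtype libraries, with none of 10 past the threshold. The 10 corpus luteum markers summed to 9603 to 16730 CPM in GalTKO and 17326 to 23268 CPM in wildtype libraries, without overlap, and 1 of them, Star, was lower. Their median log2 fold change was -0.65, with 9 negative and 1 positive. Cyp11a1 (2862 to 6847 CPM over all libraries) and Hsd3b1 (2513 to 6830 CPM) were the largest parts of these sums. Macrophage markers summed to 134 to 158 CPM in GalTKO and 212 to 261 CPM in wildtype libraries, and endothelial markers to 369 to 409.5 CPM in GalTKO and 458 to 585 CPM in wildtype libraries. Neither sum overlapped, and 2 of 5 genes were lower in each list (Csf1r and Mpeg1, and Kdr and Pecam1). Summed theca, stroma and smooth muscle markers overlapped between the genotypes, and none of these markers passed with all libraries. Without GalTKO replicate 2, Cyp17a1 passed as higher (log2 fold change 1.49) and the stroma marker Dcn as lower (-0.63). In that fit 742 genes passed, against 433 with all libraries. Surface epithelium markers summed to 96.3 to 165 CPM in GalTKO and 98.8 to 102 CPM in wildtype libraries, with 1 of 6 higher (Krt8), and erythrocyte markers to at most 6.71 CPM. With 1 library left out, Kdr and Mpeg1 passed in all 6 fits, Slc18a2 in 3, Star and Csf1r in 2, and Pecam1 and Krt8 in 1. Star passed without GalTKO replicate 2 or 3, Csf1r likewise, Slc18a2 without GalTKO replicate 2 or 3 or wildtype replicate 2, Pecam1 without wildtype replicate 1 and Krt8 without GalTKO replicate 2. The share of counts from mitochondrially encoded genes was 2.22% to 3.53% in GalTKO and 1.37% to 1.97% in wildtype libraries. The part of these shifts in the values of Amh, Fst and Smad1 was not tested.

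The other genes next to the 7 were Sp1 before Amhr2, Ralb before Inhbb, and Rnf126 and Palm on either side of Fstl3, with log2 fold changes of -0.06 ± 0.09, -0.22 ± 0.09, 0.12 ± 0.10 and -0.12 ± 0.21 (SE). Of 18 neighbouring or overlapping genes 7 were tested and none passed. A further 10 were not tested and held at most 0.86 CPM in any library. They were Gm15181, B230303A05Rik, Gm48444, Gm48928, Gm22628, Gm29455, Gm41073, Gm25950, Prss57 and Gm47040. Gm15181, past Inha, had 13, 20 and 2 counts in GalTKO replicates 1 to 3 and 0 counts in each wildtype library. Gm26518 past Amhr2 was absent from the deposited counts.

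Patterns most like each of the 7 were sought over the 6 libraries by Pearson's r of log2 CPM among 11247 protein-coding genes with a mean of at least 5 CPM; with so many genes and 6 points, high values of r arise readily, and they are given as a description. Closest to Amh were Tpm1 (0.992) and Rcn1 (0.991), and closest to Amhr2 were Sulf2 (0.996) and Ddx41 (0.992). Closest to Inha were Ndc1 (0.994) and Zbtb7b (0.991), to Inhba Entpd7 and Ecsit (0.993 each), and to Inhbb Ppox (0.985) and Nedd1 (0.973). Closest to Fst were Ube2h (0.996) and Atp9a (0.995), and to Fstl3 Ptms (0.995) and Rflnb (0.991). None of these 14 genes passed the test between genotypes. Tpm1 had 489, 475 and 466 CPM in GalTKO replicates 1 to 3, against 387, 367 and 319 CPM in wildtype replicates 1 to 3 (log2 fold change 0.41, edgeR adjusted p = 0.0731).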

How the data were processed

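Total RNA of 6 whole ovary samples was depleted of ribosomal RNA and sequenced from strand-specific libraries, per the labels' protocols. The authors deposited 1 table of raw, unnormalized counts per Ensembl gene. The submitters' processing notes name cutadapt 1.16, STAR 2.7.6a, featureCounts 1.6.3, DESeq2 1.30.1 and the build GRCm38; no source used here gives their roles, the annotation release, the strand setting or the handling of multiply matching reads. Names, coordinates and exon lengths came from GENCODE M21 (55227 of 55487 identifiers matched), and upstream sequences from RefSeq on GRCm38.p6, which gave windows for 5 of the 7 genes.

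Counts over all genes were tested with edgeR 4.0.16 in R 4.3.3 (filterByExpr with a minimum count of 10 and total of 15, TMM scaling, robust quasi-likelihood fit, genotype as the only term, two-sided, Benjamini-Hochberg adjustment over 16957 genes, threshold 0.05). CPM uses TMM-scaled library sizes, and the SE is the log2 fold change divided by the square root of F. Ratios used counts plus 0.5. The fit was tested on simulated data. No 2 libraries agreed within sampling noise (chi-square per degree of freedom at least 12.0). Alternatives were DESeq2 1.42.0, limma 3.58.1 (voom), other scalings and filters, a replicate block, and each library left out.

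The 7 genes and the lists were chosen with earlier results of these data known. Pathway genes are named where they passed and otherwise by the 3 smallest p per list; neighbours are the nearest gene on each side and overlapping genes, and the likeness rule names 2 genes for each of the 7. Smad3, Smad5, Smad9, Nr5a1 and Fshr were named after their values were seen, as were Cyp17a1 and the markers named.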

Additional observations from a re-analysis of the deposited data

How the results depend on the processing

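With all 6 libraries 433 genes passed, of which 1 (Amh) is among the 7. The counts were 877 and 2 with no filter on low counts and 1044 and 2 in DESeq2, with Fst as the second gene in both. At an adjusted p under 0.1 they were 761 and 1. With 1 library left out they ran from 165 to 742 and from 0 to 2; such fits have fewer samples. The cause of the other shifts was not tested. RLE and upper-quartile scaling moved the median log2 fold change by -0.0043 and 0.023, and Amh passed under both, as under voom and the stricter filter.

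Correlations of deviations from the group means were 0.117, -0.0424 and 0.0941 between same-numbered GalTKO and wildtype libraries. Between differently numbered libraries they ran from -0.143 to 0.0345. The labels state no pairs, so the numbers are not taken as pairs, though these weak values do not exclude a pairing. With the replicate block 321 genes and 1 of the 7 passed, Amh at 0.77 (adjusted p = 0.0208), and Nr5a2 did not pass (adjusted p = 0.0986).

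Some directions turned, none of them of a called value. With 1 library left out the log2 fold change of Inha ran from -0.14 to 0.0016, of Inhba from -0.38 to 0.20, of Furin from -0.17 to 0.043, of Grem1 from -0.23 to 0.98 and of Pcsk5 from -0.17 to 0.47. The log2 ratio, GalTKO minus wildtype, of Inhbb to Inhba ran from -0.46 to 0.032, of Inha to Inhba from -0.23 to 0.30 and of Fst to Inhba from -0.65 to 0.045. Under voom Inhba stood at 0.11. Amh, Amhr2, Fstl3, Inhbb and Fst kept their direction in all 13 alternative fits. Fstl3, at 124 to 260 counts, is the gene whose counting error is largest among the 7.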
